A study of Anolis carolinensis with 142 samples.

Results

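The 60 genes described here were more highly expressed in female than in male green anoles in brain, eye and liver at once, although the deposited table places none of them on linkage group b. They were chosen from the measured values. Of the 26479 gene IDs in the table, 10978 lay off linkage group b and had a median level of at least 1 CPM (the gene's count as a share of its library's total, times 1e+06) in brain, eye and liver. In each of the 3 tissues females were compared with males over all treatments by Welch's t statistic on log2(CPM + 1), and genes were ranked by the lowest of their 3 statistics. All 3 statistics were positive in 2784 genes, and the 60 of highest rank were kept. Differences between the sexes in brain, eye and liver therefore chose the genes and are given below as a description, without tests. Dorsal skin, ventral skin, the gonads and the light treatments had no part in the choice, although the skins and gonads came from the same animals.

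The animals were 24 wild-caught, wild-type adult green anoles (Anolis carolinensis) in the breeding season, 12 of each sex, and bulk RNA was sequenced from 142 pieces of tissue. ALAN animals, exposed to artificial light at night, and Midnight animals, kept in the dark at night, were dissected at night under a red torch, and Midday animals were dissected by day, with 4 females and 4 males in each treatment. After 1 brain library was left out (Midnight female 4, described with the ovary-enriched genes), the libraries of females and males numbered 11 and 12 in brain, 12 and 12 in eye, 12 and 12 in liver, 12 and 11 in dorsal skin, and 11 and 12 in ventral skin, with 12 of ovary and 12 of testes. Total counts lay between 10257388 and 30952365 per library.

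Green anoles have X and Y chromosomes, with males carrying a single X, and linkage group b of the published assembly is known as part of the X. In many animals a gene with a copy on both X chromosomes of females and a single copy in males is expressed more highly in females unless some form of dosage compensation acts on it, and the anole X is known for upregulation of the male copy. Much of the published assembly consists of unplaced scaffolds, named GL followed by a number, that have not been assigned to a chromosome. The table pairs no gene ID with a name, and 0 of the 26479 IDs matched a row of the gene table used, so functions are not given and few IDs are printed.

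Of the 60 genes, 53 (88.3%) sat on GL scaffolds and 7 (11.7%) on chromosomes 2, 3, 5 and 6. Among all 10978 genes past the level filter, 5043 (45.9%) sat on GL scaffolds and 5465 (49.8%) on chromosomes 1 to 6. Most of the 60 shared a small number of scaffolds. GL343282.1 held 12 of them among its 32 genes past the filter, GL343338.1 held 9 of 40, GL343417.1 held 9 of 34, GL343364.1 held 4 of 16, GL343423.1 held 4 of 14 and GL343947.1 held 2 of 11. Together these 6 scaffolds held 40 of the 60 genes among 147 genes past the filter (27.2%), and 77 of the 147 (52.4%) had 3 positive statistics. The scaffolds were picked because each held at least 2 chosen genes outside the ovary-enriched list described below, so their shares are above those of all genes by construction and nothing is read from that.

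Except on GL343423.1, the first and last chosen genes together spanned most of the annotated length of each scaffold. On GL343282.1 they ran from base 38735 to base 1590118, and the last annotated gene of that scaffold ended at base 1640096. On GL343338.1 they ran from base 25048 to 1064208, on GL343417.1 from 2133 to 782444, on GL343364.1 from 9996 to 1051176, on GL343423.1 from 5918 to 221542 and on GL343947.1 from 148 to 115093. The last annotated gene of GL343423.1 ended at base 828827, so its chosen genes lay in the first part of that scaffold. On GL343364.1 the last chosen gene started at base 1008422, and the others started at base 221040 or before. The 2 chosen genes of GL343947.1 lay at its 2 ends. Of the 141 pairs of adjacent genes past the filter on these scaffolds, both genes were chosen in 13 pairs, and the longest unbroken run held 4 chosen genes. The 40 genes thus fell into 27 runs, with genes that were not chosen between them. Coordinates are those of the deposited table, whose genome build is not given in the sources used here.

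A second, smaller set of the 60 stood out by its level in the ovary. A list of 385 ovary-enriched genes took those that averaged 5 CPM or more in ovary and 8 times or more the average of every other tissue, and 9 of the 60 were on it, of which 2 sat on GL343257.1. The remaining 11 genes sat elsewhere, 8 on GL scaffolds that held no other chosen gene and 3 on chromosomes 2, 5 and 6, each of which also held a chosen ovary-enriched gene. The 3 sets (40 genes on shared scaffolds, 9 ovary-enriched genes and 11 genes at other places) were formed after the values were seen and are described by counts and medians, with no test between them. Merged exons of the 60 genes had a median length of 2177 bases, with a range of 519 to 7421, and a median of 12.5 exons. All genes past the filter had a median of 9 exons, and 1 of the 60 had a single exon. Another annotated gene overlapped the whole span, introns included, of 12 of the 60, on the opposite strand in 4 cases and on the same strand alone in 8. Whether the exons overlap was not examined, and the strand setting of the counting is not given. Reads of these 12 genes may therefore include those of the overlapping gene.

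**Figure D1:**
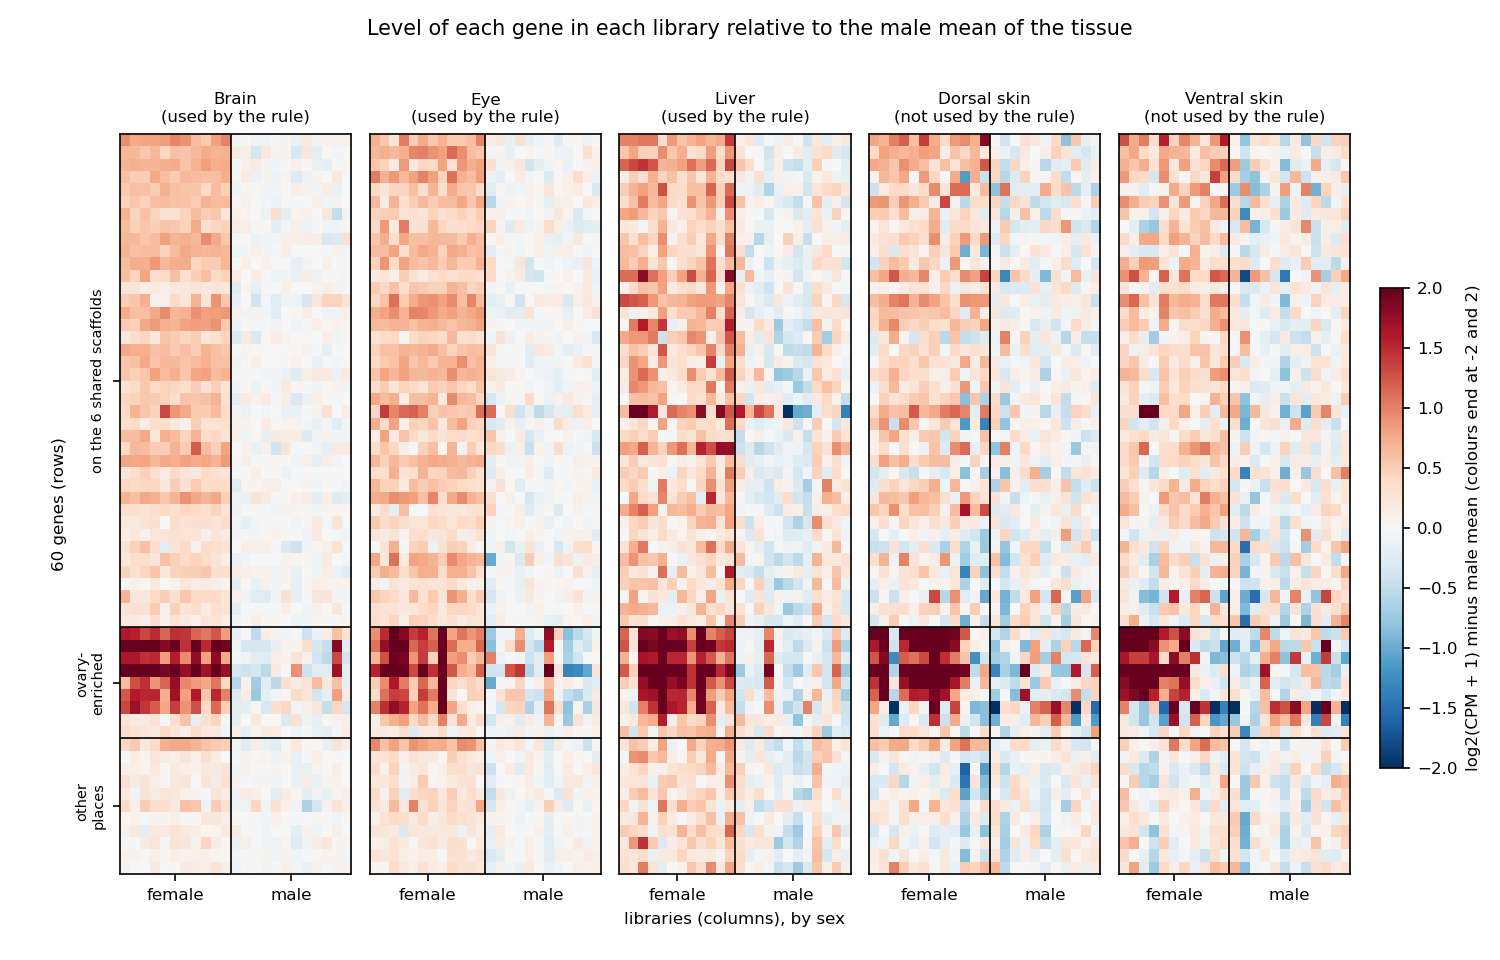
Level of each of the 60 genes (rows, by set) in each library (columns, females left of males) of brain, eye, liver, dorsal skin and ventral skin, as log2(CPM + 1) minus the mean of the males of that tissue. Colours end at −2 and 2. The rows of the 40 genes on shared scaffolds are evenly above the male mean in female brain and eye libraries and less evenly so in the skins, and the 9 ovary-enriched rows vary most between libraries.

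In the 3 tissues used for the choice, the sexes differed by a modest and similar amount for the genes on shared scaffolds. In brain their median log2 difference, females over males as fitted by edgeR, was 0.53, and in eye and liver it was 0.48, which are median folds of 1.44, 1.39 and 1.39. Among these 40 genes the highest fold reached 1.81 in brain, 1.76 in eye and 2.29 in liver. The 9 ovary-enriched genes had median log2 differences of 1.84 in brain, 1.18 in eye and 2.85 in liver, with folds of up to 12.0. The level filter took the median over both sexes, so a gene could pass it through its female levels. The male mean was under 1 CPM for 3 of the 9 in brain, 1 in eye and 6 in liver. The highest fold was in liver, at means of 2.98 CPM in females and 0.250 CPM in males. These folds are thus tied to the filter and to low male levels, and nothing is read from their size. The 11 genes at other places had the smallest medians, 0.15, 0.15 and 0.36. The 55 genes of linkage group b past the same level filter had medians of 0.38 in brain, 0.33 in eye and 0.16 in liver. The other 107 genes on the shared scaffolds had medians of 0.15, 0.11 and −0.11. The chosen genes were ranked by the sex difference in these same tissues, whereas the linkage group b genes passed the level filter alone. The 107 genes are those left on the shared scaffolds after the choice. The choice therefore favoured higher medians in the chosen genes, and nothing is read from the order of these groups. In these bulk samples, fewer cells of a type and less RNA per cell cannot be told apart.

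Every female library lay above every male library for 29 of the 60 genes in brain, against 0.453% of all genes tested there, for 23 in eye, against 0.298%, and for 2 in liver, against 0.147%. Of these, 28, 21 and 2 were on shared scaffolds. These counts describe the choice and nothing is read from them. The lowest of a gene's 3 statistics ranged from 2.39 to 8.13 and was that of liver for 41 genes, eye for 14 and brain for 5. At the limit of the choice, ENSACAG00000001652 on GL343423.1 was the last gene kept, with statistics of 6.36 in brain, 6.34 in eye and 2.39 in liver. ENSACAG00000011813 on GL343265.1 was the first gene not kept, with 2.38, 2.68 and 3.31.

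The gene of highest rank was ENSACAG00000010700, a 5-exon gene at GL343417.1:779889-782444 on the plus strand. In brain its lowest, median and highest levels were 35.2, 43.5 and 48.8 CPM in females, against 21.9, 23.5 and 27.4 CPM in males. In eye they were 42.9, 53.9 and 74.0 CPM in females, against 29.8, 35.8 and 44.4 CPM in males. In liver they were 40.2, 57.3 and 86.4 CPM in females, against 24.1, 33.0 and 37.8 CPM in males. The sexes did not overlap in brain or liver, and in eye 11 of 12 female libraries lay above every male library. The fitted log2 differences were 0.85 in brain, 0.60 in eye and 0.82 in liver.

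The second in rank was ENSACAG00000007479, at GL343364.1:221040-232962 on the plus strand. Its lowest, median and highest levels in brain were 12.1, 14.6 and 15.5 CPM in females, against 6.83, 9.26 and 10.6 CPM in males. In eye they were 13.7, 16.0 and 20.9 CPM in females, against 8.01, 8.80 and 11.3 CPM in males. In liver they were 8.20, 9.97 and 13.3 CPM in females, against 4.86, 6.45 and 8.84 CPM in males. Its sexes did not overlap in brain or eye, and in liver 10 of 12 female libraries lay above every male library.

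Averaged over the 40 genes on shared scaffolds, all female libraries lay above every male in brain (11 of 11) and eye (12 of 12). In liver 11 of 12 did. These tissues chose the genes, so nothing is read from these counts. The averages of the genes at other places and of the linkage group b genes also separated the sexes fully in brain and eye. In the skins, which had no part in the choice, the average of the 40 genes lay above every male in 9 of 12 dorsal and 9 of 11 ventral female libraries. In dorsal skin this average, as log2(CPM + 1) minus the male mean, was 0.30 ± 0.14 in females (SD, n = 12), against a male SD of 0.10 (n = 11). It ranged from 0.07 to 0.44 in females and from −0.18 to 0.15 in males. In ventral skin it was 0.35 ± 0.15 in females (SD, n = 11), against a male SD of 0.20 (n = 12), with ranges of −0.05 to 0.47 in females and −0.38 to 0.29 in males. A single female ventral skin library, Midnight female 1, lay below the male mean.

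Like the average of the genes on shared scaffolds, the averages of the other 2 sets overlapped between the sexes in both skins. For the 9 ovary-enriched genes the average was 0.98 ± 0.92 in female dorsal skin (SD, n = 12), with a range of −0.73 to 2.32, against −0.79 to 0.37 in males. In ventral skin it was 0.77 ± 0.79 in females (SD, n = 11), with a range of −0.62 to 1.53, against −0.53 to 0.77 in males. Females above every male numbered 9 of 12 in dorsal and 6 of 11 in ventral skin. For the 11 genes at other places the averages overlapped in both skins, at 0.01 ± 0.21 in dorsal (SD, n = 12) and 0.09 ± 0.22 in ventral skin of females (SD, n = 11), and 0 females lay above every male in either.

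**Figure D2:**
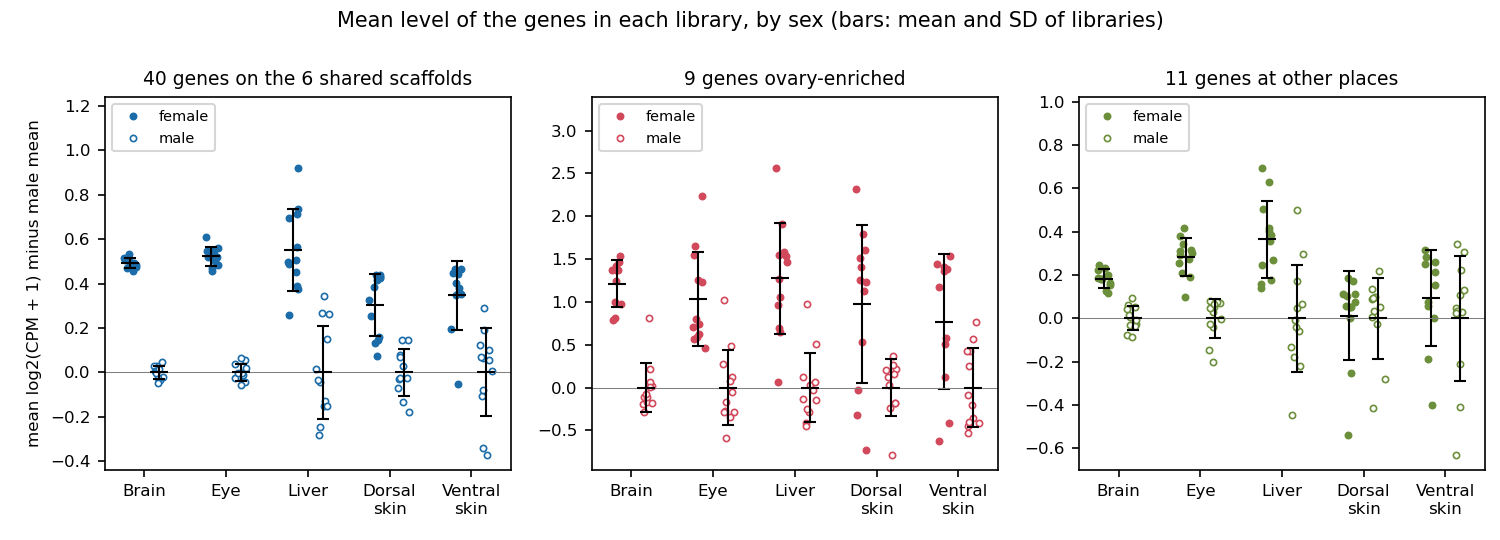
Average over the genes of each of the 3 sets in each library, as log2(CPM + 1) minus the male mean of the tissue (vertical axis), for 5 tissues, with females (filled points) left of males (open points) and bars for the mean and SD. Female and male averages of the genes on shared scaffolds and of those at other places are separate in brain and eye, which chose the genes. The averages of all 3 sets overlap between the sexes in both skins.

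The comparison in dorsal skin, which had no part in the choice, asked whether the same genes were higher in females in a further tissue. Here 18 of the 60 genes rose in females and 0 fell (edgeR quasi-likelihood test, adjusted p under 0.05 by Benjamini-Hochberg over 17975 genes), against 1.22% of all genes tested that were higher in females. The difference was positive in 53 of the 60, with a median log2 of 0.43 against −0.02 over all genes, and a range of −0.15 to 3.39. On shared scaffolds 14 of 40 genes rose (median 0.45), of the ovary-enriched genes 3 of 9 (median 1.29), and of the genes at other places 1 of 11 (median 0.09). Every female library lay above every male library for 1 of the 60, against 0.0111% of all genes. The median of the genes at other places was −0.08, with 4 of 11 positive in place of 7, when only library totals were used for scaling, and the median over all genes then moved to −0.14.

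ENSACAG00000001224, at GL343282.1:1354532-1412589 on the minus strand, had the smallest p of the 60 in dorsal skin. Its lowest, median and highest levels were 15.1, 27.0 and 29.8 CPM in females, against 14.9, 18.4 and 21.3 CPM in males. It was 0.61 higher in females on the log2 scale (SE 0.09, edgeR quasi-likelihood test, adjusted p = 0.00137), and 10 of 12 female libraries lay above every male library. ENSACAG00000001096, at GL343423.1:35665-73204 on the minus strand, had 55.0, 79.1 and 99.6 CPM in females, against 48.7, 54.6 and 65.0 CPM in males. It was 0.59 higher in females (SE 0.09, edgeR quasi-likelihood test, adjusted p = 0.00195), with 9 of 12 females above every male. In ventral skin its log2 difference was 0.36 (edgeR quasi-likelihood test, adjusted p = 0.1504).

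Ventral skin gave fewer calls with a similar shift. There 7 of the 60 genes rose in females and 0 fell (edgeR quasi-likelihood test, Benjamini-Hochberg over 17543 genes), against 0.188% of all genes tested, and 56 of 60 differences were positive. The median log2 difference was 0.35 against −0.01 over all genes, with a range of −0.16 to 2.68. By set, 6 of 40 genes on shared scaffolds rose (median 0.36), 1 of 9 ovary-enriched genes (median 1.06) and 0 of 11 genes at other places (median 0.18). Complete separation of the sexes was seen in 0 of the 60 genes, against 0% of all genes. The number of calls in ventral skin was 1 with library totals alone, where 4 of all 17543 genes were called higher, against 33 in the main fit. It was 14 when Midday male 2, whose profile lay away from the other ventral skin libraries, was removed. In that case 43 of all 17512 genes were called higher.

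ENSACAG00000039965, a 3-exon gene at GL343282.1:1469671-1472776 on the minus strand, had the smallest p of the 60 in ventral skin. Its lowest, median and highest levels there were 13.5, 19.0 and 25.3 CPM in females, against 5.50, 12.0 and 15.5 CPM in males. It was 0.89 higher in females (SE 0.12, edgeR quasi-likelihood test, adjusted p = 0.00203), and 9 of 11 females lay above every male. In dorsal skin it had 14.0, 20.4 and 24.2 CPM in females, against 7.77, 12.0 and 12.9 CPM in males, and was the 1 gene there whose sexes did not overlap. Another gene on the same strand overlaps it.

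The gene of highest rank in the body tissues, ENSACAG00000010700, also rose in both skins. In ventral skin its lowest, median and highest levels were 55.0, 86.8 and 144 CPM in females, against 26.7, 54.7 and 66.0 CPM in males, a log2 difference of 0.97 (SE 0.16, edgeR quasi-likelihood test, adjusted p = 0.0177). In dorsal skin they were 57.2, 78.0 and 156 CPM in females, against 24.6, 42.7 and 63.7 CPM in males, a log2 difference of 1.09 (SE 0.19, edgeR quasi-likelihood test, adjusted p = 0.00249). Females above every male numbered 11 of 12 in dorsal and 8 of 11 in ventral skin.

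ENSACAG00000007479 had 13.3, 19.6 and 22.1 CPM in dorsal skin of females, against 9.25, 11.9 and 16.9 CPM in males, a log2 difference of 0.77 (SE 0.14, edgeR quasi-likelihood test, adjusted p = 0.00296). In ventral skin it had 14.5, 19.9 and 22.7 CPM in females, against 9.06, 13.2 and 17.1 CPM in males, a log2 difference of 0.61 (SE 0.11, edgeR quasi-likelihood test, adjusted p = 0.0195). Most but not all female libraries lay above every male library, 8 of 12 in dorsal and 9 of 11 in ventral skin.

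Across both skins, 6 genes were called in each, which is 33.3% of the 18 called in dorsal and 85.7% of the 7 called in ventral skin. All 6 were on shared scaffolds, with 4 on GL343282.1, 1 on GL343417.1 and 1 on GL343364.1. Of all genes, 219 were called higher in females in dorsal and 33 in ventral skin. How many of all genes were called in both is not given, so nothing is read from the 33.3% and 85.7%. The skins came largely from the same animals, so they are not independent. The difference between the sexes did not pass the test of a difference between dorsal and ventral skin for any of the 60 genes (0 of 60, and 0% of 18600 genes, edgeR quasi-likelihood test with Benjamini-Hochberg adjustment). At an unadjusted p under 0.05 the counts were 0 of the 60 and 1183 of all genes, and DESeq2 also called 0 of the 60. The dorsal minus ventral difference ranged from −0.39 to 0.98 on the log2 scale with SEs of 0.11 to 1.00 (median 0.21). This fit treats the skins as unpaired. With the number within treatment and sex taken as the animal and kept as a block, the SEs were 0.09 to 0.83 (median 0.15), 0 of the 60 and 0 of all genes were called, and 3 of the 60 and 1966 of all genes had an unadjusted p under 0.05.

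**Figure D3:**
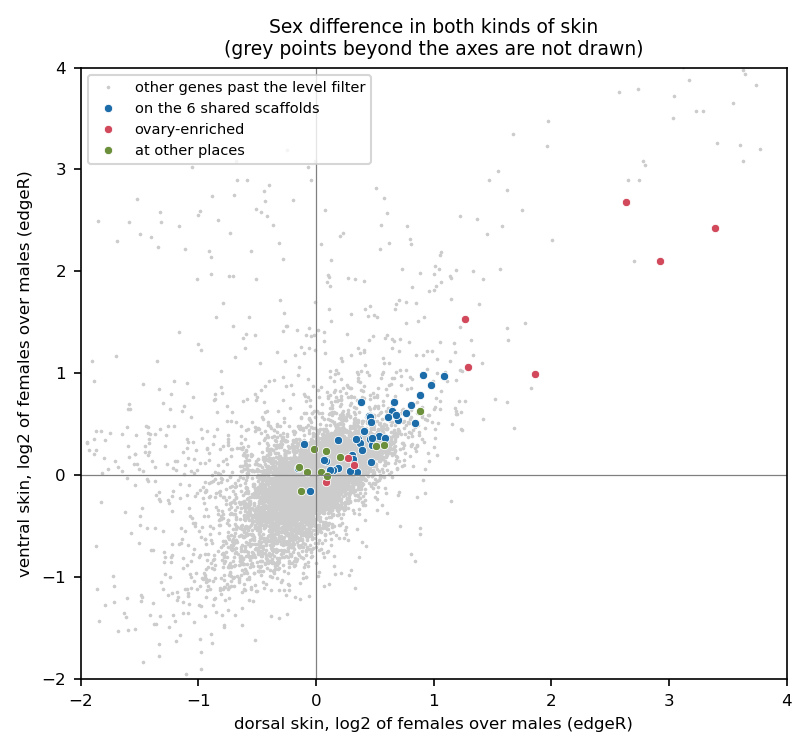
Log2 difference of females over males in dorsal skin (horizontal axis) and ventral skin (vertical axis), by edgeR, for the 60 genes coloured by set and for other genes in grey, some of which lie beyond the axes. The 40 genes on shared scaffolds lie mostly to the upper right of zero, with medians of 0.45 in dorsal and 0.36 in ventral skin.

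On each of the 6 shared scaffolds the median log2 difference in both skins was higher for the chosen genes than for the other genes past the filter, a contrast between gene groups that was not tested. The other genes are those left on the scaffolds after the choice. Of all genes tested, 1.22% in dorsal and 0.188% in ventral skin were called higher in females. On GL343282.1 the 12 chosen genes had a median log2 difference of 0.65 in dorsal skin, with 7 called, against 0.02 with 0 called for the 20 other genes. Calls did not follow the medians everywhere. On GL343338.1 the dorsal medians were 0.36 for the 9 chosen, with 1 called higher, and 0.08 for the 31 others, with 4 called higher and 2 lower. On GL343417.1 they were 0.38 for the 9 chosen, with 2 called, and −0.12 for the 25 others, with 2 called higher. In ventral skin GL343417.1 had 1 of its 9 chosen genes and 3 of its 25 others called higher. On GL343364.1 the dorsal medians were 0.49 for 4 chosen, with 2 called, and 0.08 for 12 others, with 0 called. GL343423.1 differed in that the medians were near each other, 0.30 for 4 chosen and 0.24 for 10 others. In ventral skin the chosen genes of GL343282.1 had a median of 0.56 with 4 called, against 0.01 with 0 called for the others, and those of GL343947.1 had 0.55 against 0.05.

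Of all genes tested, 219 of 17975 were called higher and 481 lower in females in dorsal skin, and 33 of 17543 higher and 3 lower in ventral skin. Over the 6 scaffolds, the other 107 genes had 7 calls higher and 2 lower in females in dorsal skin (median 0.05) and 5 higher and 0 lower in ventral skin (median 0.05). The 55 genes of linkage group b had 10 calls higher and 2 lower in dorsal skin (median 0.28) and 5 higher and 1 lower in ventral skin (median 0.27). The chosen genes, the other genes of the scaffolds and the linkage group b genes are described side by side, and the difference between them was not tested.

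**Figure D4:**
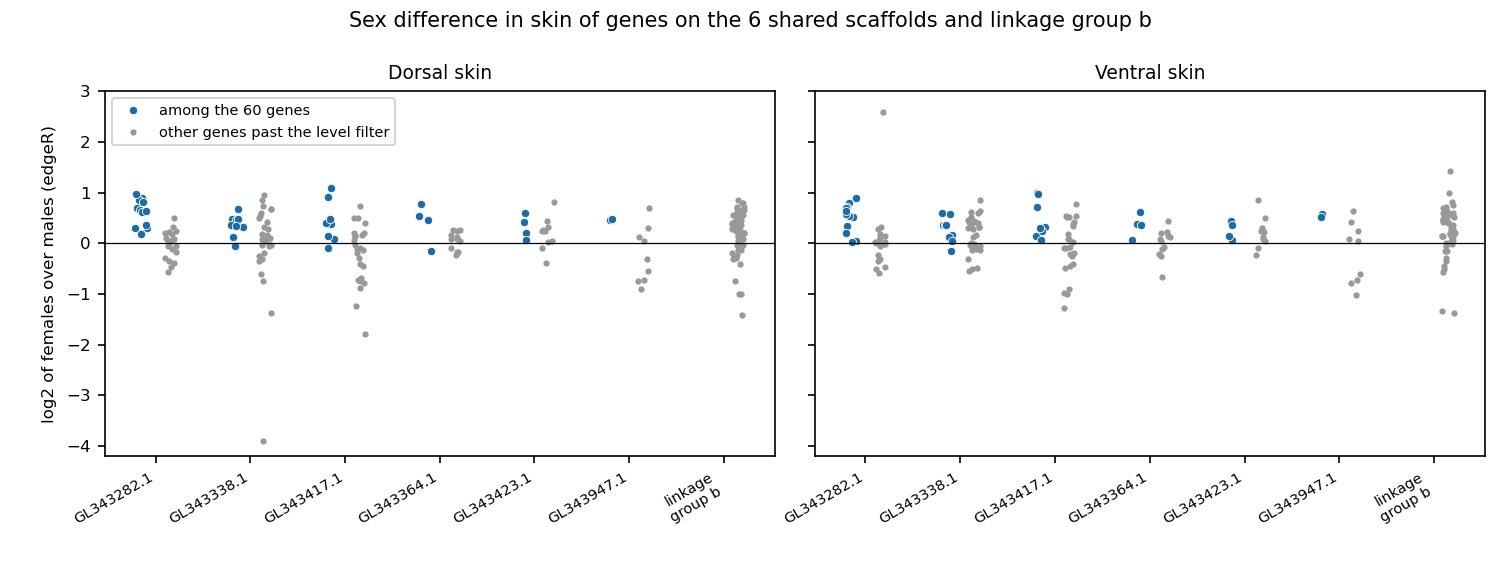
Log2 difference of females over males (vertical axis) in dorsal and ventral skin for genes past the level filter on the 6 shared scaffolds and on linkage group b, with chosen genes in blue and other genes in grey. On GL343282.1 the 12 chosen genes have a median of 0.65 in dorsal skin and the 20 others a median of 0.02.

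Within each treatment, the sexes in the skins could be compared with 3 or 4 libraries of each sex. At that size edgeR called 0 of the 60 and 0 of all genes in either skin. The medians for the genes on shared scaffolds in dorsal skin were 0.34 in Midday, 0.27 in Midnight and 0.66 in ALAN libraries. In ventral skin they were 0.40, 0.41 and 0.42. By average log2(CPM + 1) minus the male mean, these genes in dorsal skin had 0.35 in Midday, 0.33 in Midnight and 0.23 in ALAN females. The males had 0.003, 0.01 and −0.02. The order of treatments in dorsal skin thus differed between the fitted medians and these averages, and nothing is read from it. The ovary-enriched genes varied more, with ventral medians of 2.16 in Midday, 1.69 in Midnight and 0.08 in ALAN libraries, the last over the 6 of these genes that could be tested there. Of the ventral skin libraries, 4 of the ALAN females were in the counting class described below, against 1 of the ALAN males.

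Whether the sex difference depended on treatment was tested directly in the 5 tissues of both sexes. No gene of the 60 was called (edgeR quasi-likelihood test, Benjamini-Hochberg adjustment), against 0% of all genes in brain, eye, liver, dorsal skin and ventral skin alike, with lowest adjusted p of 0.872, 0.999, 0.925, 0.719 and 0.386 in that order. At an unadjusted p under 0.05 the counts of the 60 were 7, 1, 3, 6 and 5, against 5.61%, 3.78%, 5.05%, 6.53% and 4.97% of all genes. DESeq2 called 3 of the 60, 1 in brain, against 0.0459% of all genes, and 2 in ventral skin, against 0.553%.

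The ovary-enriched genes were mostly at low levels in brain, eye, liver and skin, although the highest of the 9 averaged 55.3 CPM in male dorsal skin. In testes the median over the 9 genes was 65.8 CPM, with a range of 2.54 to 168 CPM. Their mean level was 322 to 4414 CPM in ovary, and the median over the 9 genes was 5.29 CPM in female and 1.28 CPM in male brain, 6.24 CPM in female and 2.36 CPM in male eye, and 4.20 CPM in female and 0.931 CPM in male liver. In the skins it was 7.01 CPM in female and 2.702 CPM in male dorsal skin, and 5.90 CPM in female and 2.14 CPM in male ventral skin. Expressed as a share of each gene's ovary level, the excess of females over males had a median of 0.163% in brain, 0.175% in eye, 0.155% in liver, 0.198% in dorsal skin and 0.145% in ventral skin. Among the 9 genes it ranged from −0.195% to 0.318% in dorsal and from −0.121% to 0.172% in ventral skin. In brain, eye and liver the choice itself fixed the sign of this excess. The other ovary-enriched genes of at least 1000 CPM in ovary, 6 in number and not among the 60, had an excess in females in 6 of 6 cases in brain and in eye, and in 5 of 6 in liver, dorsal skin and ventral skin. In brain it ranged from 0.114% to 0.532% of the ovary level. Its median was 0.202% in eye, 0.152% in liver, 0.285% in dorsal skin and 0.152% in ventral skin.

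Within the list as a whole, the other ovary-enriched genes summed to 4.00% to 8.22% of the counts in ovary libraries. In brain they held 0.142% to 0.158% in females, against 0.131% to 0.145% in males. In eye they held 0.156% to 0.195% in females, against 0.143% to 0.168% in males. In liver they held 0.0842% to 0.159% in females, against 0.0749% to 0.142% in males. The skins did not follow this order, with medians of 0.212% in females and 0.227% in males in dorsal skin, and 0.188% in females and 0.220% in males in ventral skin. In single-gene tests, 40 of the other 327 ovary-enriched genes tested in dorsal skin rose in females and 4 fell, and 7 of 320 rose in ventral skin, where 1.22% and 0.188% of all genes were higher in females. The part of ovary-enriched RNA in the results for these 9 genes was not tested, and without them 15 of the remaining 51 genes were called in dorsal skin and 6 in ventral skin, against the same shares of all genes.

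The brain library left out, Midnight female 4, carried 1.86% of its counts in ovary-enriched genes, and the 9 genes summed to 3707 CPM in it. In the other female brain libraries the sum was 50.2 to 81.9 CPM, against 31.1 to 50.9 CPM in males. With this library kept in, 55 of the 60 genes would still have been chosen.

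In the gonads, organ and sex cannot be told apart, so levels in ovary and testes are a comparison of both together. With edgeR's composition scaling, 40 of the 60 genes were higher in ovary than in testes, against 36.6% of 18343 genes, and 15 were lower, against 47% (quasi-likelihood test, Benjamini-Hochberg adjustment). The median log2 difference was 0.81, against −0.35 over all genes. Among genes off linkage group b past the level filter the median was 0.08, and 45.1% were higher in ovary. Without the 9 ovary-enriched genes, which are high in ovary by definition, the median of the remaining 51 was 0.54. On shared scaffolds 23 of 40 were higher and 13 lower in ovary, the ovary-enriched genes were all higher (9 of 9, as the list requires), and of the genes at other places 8 of 11 were higher and 2 lower. The other 107 genes on the shared scaffolds had 37 higher and 51 lower in ovary, and the 55 genes of linkage group b had 26 higher and 21 lower. The split depended on scaling, since the composition factors lay between 1.27 and 1.43 in ovary and between 0.713 and 0.790 in testes. With library totals alone, 49 of the 60 were higher and 6 lower in ovary, and the median over all genes was 0.50, with 9234 genes higher and 6039 lower.

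The largest differences belonged to ovary-enriched genes. ENSACAG00000013677 on GL343666.1 had a lowest, median and highest level of 1714, 3214 and 4599 CPM in ovary, against 0, 9.52 and 18.8 CPM in testes, a log2 difference of 7.66 (SE 0.46, edgeR quasi-likelihood test, adjusted p = 1.22e-13). A gene on the opposite strand overlaps it. In brain it had 3.20, 6.49 and 8.14 CPM in females, against 0.106, 0.340 and 4.46 CPM in males. ENSACAG00000030811 on GL343257.1 had 650.0, 1840.3 and 2176 CPM in ovary, against 0.277, 4.85 and 9.50 CPM in testes, a log2 difference of 7.63 (SE 0.35, edgeR quasi-likelihood test, adjusted p = 5.91e-16). In liver it had 0.464, 2.49 and 9.41 CPM in females, against 0, 0.0901 and 1.36 CPM in males. Ovary and testes did not overlap for either gene, whereas the sexes overlapped for the first in brain and for the second in liver.

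Some of these genes, all chosen as higher in females in brain, eye and liver, were lower in ovary than in testes. ENSACAG00000011685 on GL343297.1, which is not a shared scaffold, had 27.9, 34.7 and 43.6 CPM in ovary, against 82.5, 98.2 and 107 CPM in testes. It was lower in ovary at a log2 difference of −2.32 (SE 0.08, edgeR quasi-likelihood test, adjusted p = 1.25e-18). ENSACAG00000007994 on GL343364.1, which 4 genes on the opposite strand overlap, had 21.7, 24.5 and 29.8 CPM in ovary, against 35.4, 39.0 and 44.3 CPM in testes, a log2 difference of −1.51 (SE 0.06, edgeR quasi-likelihood test, adjusted p = 3.32e-17). Ovary and testes did not overlap for either gene, and both stayed lower in ovary with library totals alone.

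The first 2 genes in rank differed in the gonads. ENSACAG00000007479 had a lowest, median and highest level of 47.1, 93.0 and 109 CPM in ovary, against 4.72, 6.02 and 7.74 CPM in testes, a log2 difference of 3.01 (SE 0.12, edgeR quasi-likelihood test, adjusted p = 1.77e-17), with no overlap. ENSACAG00000010700 had 15.4, 17.3 and 47.9 CPM in ovary, against 15.4, 16.4 and 17.6 CPM in testes, with overlapping ranges. Its mean was 20.4 CPM in ovary and 16.5 CPM in testes, whereas the fit with composition scaling gave a log2 difference of −0.58 (SE 0.14, edgeR quasi-likelihood test, adjusted p = 0.000474), so its direction depended on the scaling.

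**Figure D5:**
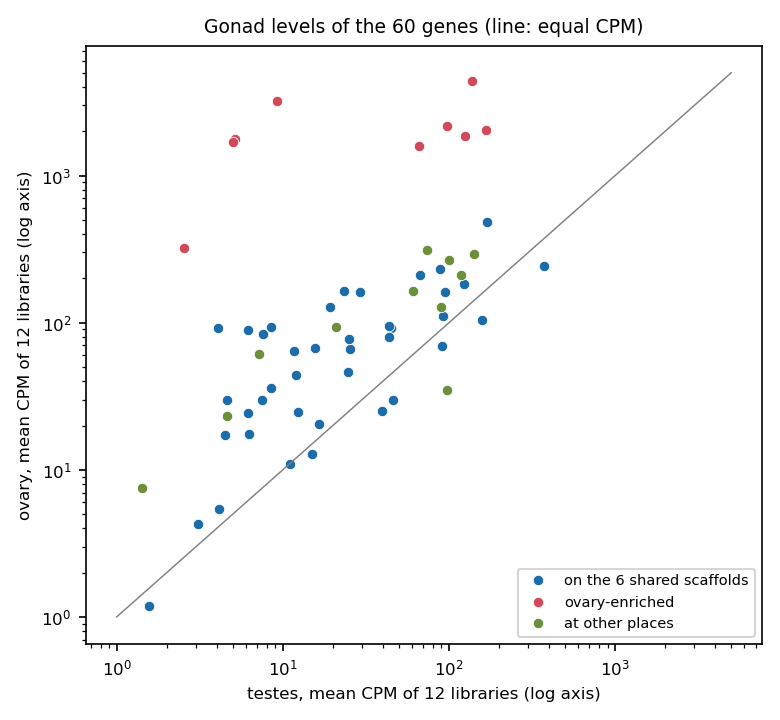
Mean level in testes (horizontal axis) and ovary (vertical axis) of the 60 genes, in CPM on log axes, coloured by set, with the line of equal CPM. By CPM, 51 of the 60 lie above the line. The 9 ovary-enriched genes lie at 322 to 4414 CPM in ovary, and the genes on shared scaffolds at up to 480 CPM.

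The tissue of highest mean level differed between sets. For the genes on shared scaffolds it was ovary in 16, ventral skin in 10, brain in 5, eye in 5, liver in 2, dorsal skin in 1 and testes in 1. For the genes at other places it was ovary in 9, testes in 1 and ventral skin in 1. Per kilobase of merged exons, the median level of the 60 was 43.8 CPM in ovary, 10.7 in testes, 14.6 in brain, 22.2 in eye, 8.60 in liver, 17.9 in dorsal and 16.8 in ventral skin.

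The treatments were compared in each tissue. Contrasts with Midday also compare night with day, and all 4 calls described here were in those contrasts. Over 7 tissues and 3 contrasts, 4 of 1260 tests passed (edgeR quasi-likelihood test, Benjamini-Hochberg adjustment over all genes of a tissue), 1 of them higher and 3 lower, and the median of the 60 stayed between −0.09 and 0.09 on the log2 scale in every contrast. The median of the 9 ovary-enriched genes covered a wider range, −0.97 to 0.66. In eye 0 of 9 were positive for ALAN over Midday (median −0.97) and 1 of 9 for ALAN over Midnight (median −0.97). Of all genes tested there, 47.7% and 49.3% were positive in that order. At an unadjusted p under 0.05 were 5 of 9 in the first contrast, against 4511 of all 16462 genes tested. In the second contrast 7 of 9 were, against 1707 of 16462, and 0 of the 9 were called after adjustment. The 9 genes were measured in the same libraries, so these counts are not of independent results. Eye libraries of ALAN animals also differed from the others in counting class, described below. For ALAN over Midnight 0 of 9 were positive in dorsal skin (median −0.64) and ventral skin (median −0.79). In brain 0 of the 60 were called, against 1.47% of all genes for Midnight over Midday, 0.0803% for ALAN over Midnight and 1.02% for ALAN over Midday. In dorsal skin 0 were called, against 0.195%, 0.0223% and 0.0556% in that order. In testes 0 were called, against 0%, 0.43% and 0.488%, and in ovary 0 were called, against 0%, 0% and 0.0671%. In eye 1 was called in ALAN over Midday, against 6.68%, and 0 in Midnight over Midday and ALAN over Midnight, against 4.37% and 0.158%. In liver 1 was called in Midnight over Midday, against 1.97%, 0 in ALAN over Midnight, against 0.358%, and 1 in ALAN over Midday, against 0.933%. In ventral skin 0 were called in Midnight over Midday, against 0.057%, 0 in ALAN over Midnight, against 1.92%, and 1 in ALAN over Midday, against 2.11%.

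ENSACAG00000008829 on GL343417.1 had 8.80, 13.9 and 18.1 CPM in Midnight livers, against 14.9, 23.1 and 26.3 CPM in Midday livers, with 8 libraries each, and fell by 0.60 on the log2 scale (SE 0.14, edgeR quasi-likelihood test, adjusted p = 0.0216). ENSACAG00000008788, on the same scaffold, had 38.6, 71.2 and 113 CPM in ALAN livers, against 21.5, 39.5 and 75.1 CPM in Midday livers, and rose by 0.79 (SE 0.17, edgeR quasi-likelihood test, adjusted p = 0.0185). The groups overlapped for both genes, and another of the 60 genes overlaps ENSACAG00000008788. ENSACAG00000029627, an ovary-enriched gene on chromosome 6, had 1.00, 1.40 and 1.93 CPM in 8 ALAN ventral skins, against 1.22, 2.80 and 10.2 CPM in 7 Midday ventral skins, and fell by 1.42 (SE 0.35, edgeR quasi-likelihood test, adjusted p = 0.0346). The fourth call, named because of its value, was ENSACAG00000012243, an ovary-enriched gene on chromosome 5. It had 0.0457, 2.65 and 5.25 CPM in ALAN eyes, against 1.01, 6.46 and 20.9 CPM in Midday eyes, and fell by 2.01 (SE 0.59, edgeR quasi-likelihood test, adjusted p = 0.0418). Both ovary-enriched calls were lost in some of the alternatives given below.

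The libraries also fell into 2 classes by how low counts were distributed. Among counts between 1 and 20, even values made up 58.8% to 72.6% in 100 libraries and 40.5% to 44.4% in the other 42. In the skins the class of 42 held 3 females and 3 males in dorsal and 4 females and 2 males in ventral skin. With the class as a term, 19 of the 60 genes were called higher in females in dorsal and 10 in ventral skin. Of all genes, 175 of 17975 in dorsal and 53 of 17543 in ventral skin were then called higher. All 8 ALAN livers and 0 of 8 Midday livers were in that class, so in liver class and ALAN treatment cannot be told apart. The same held in testes, with all 4 ALAN libraries in the class and 0 of the others. In ovary it held 3 of 4 ALAN libraries and 0 of the others, and its dorsal skin libraries were all Midday. In ventral skin it held 4 ALAN females, 1 ALAN male and 1 Midday male. In eye it held 1 ALAN female, 3 Midday females, 4 Midday males, 4 Midnight females and 3 Midnight males. Treatment contrasts in these tissues therefore partly compare classes. Apart from the brain library left out, 10 libraries stood apart from their tissue, of which 1 was in each skin. Without the libraries that stood apart, 20 of the 60 genes were called in dorsal and 14 in ventral skin. Of all genes, 198 of 17952 in dorsal and 43 of 17512 in ventral skin were then called higher.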

How the data were processed

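Counts per gene were deposited by the authors as whole numbers, 1 column per library. The tools named in the submitters' processing notes are STAR 2.7.11a, Subread with featureCounts, FastQC and Trimmomatic, without their roles. Genome build, annotation release and strand setting: not given in the sources used here. Replicates are separate animals. The members and lists were chosen with earlier results of these data known. The RefSeq gene table (assembly rAnoCar3.1, 27148 rows) matched 0 of 26479 IDs.

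CPM was the count divided by the library's total times 1e+06. Each tissue was fitted across all genes with edgeR 4.0.16 in R 4.3.3 (TMM scaling, filterByExpr, robust quasi-likelihood test, treatment as a covariate of sex and the reverse, Benjamini-Hochberg adjustment, calls at an adjusted p under 0.05). DESeq2 1.42.0 was an alternative. The fitting scripts were tested on simulated data. Tables and figures used Python 3.11.15, pandas 2.3.3 and matplotlib 3.10.9. Libraries stood apart when their correlation with their tissue lay more than 5 median absolute deviations low.

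At most 2 IDs per direction and comparison were named: the first 2 in rank, the 2 called genes of smallest p in each skin, the 2 of largest change in each direction between gonads, the called gene of smallest p in each direction for each treatment contrast, and the genes at the limit of the choice.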

Additional observations from a re-analysis of the deposited data

Results flagged for a closer look

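In 109 groups of 4 libraries of a tissue, treatment and sex, the highest or lowest library stood far from the nearest of the others in 7. Chance alone does so in about 1 in 20 groups. The same libraries recur for the averages of the 3 sets and for the ovary-enriched share, so the 109 groups are not independent. For the averages of the 9 ovary-enriched genes, as log2(CPM + 1) minus the male mean, Brain ALAN male 3 had 0.81 with the next male at −0.07. Liver Midday male 4 had 0.98 with the next male at 0.02, and Ventral skin Midday male 4 had 0.77 with the next male at −0.36. For the average of the 11 genes at other places, Brain ALAN female 3 had 0.23 with the next female at 0.19. For the share of counts in ovary-enriched genes, Brain Midnight female 4 had 1.86% with the next female at 0.159%, Liver Midnight female 1 had 0.171% with the next at 0.106%, and Ventral skin Midnight female 3 had 0.337% with the next at 0.201%.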

How the results depend on the processing

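Counts are of the 60 genes, by edgeR unless DESeq2 is named. In dorsal skin the 18 calls higher in females became 27 with DESeq2 (2.61% of all genes, against 1.22% with edgeR), 17 with library totals alone and 0, 0 and 0 in Midday, Midnight or ALAN libraries alone, where fewer libraries enter. In ventral skin the 7 calls became 23 with DESeq2 (1.68% of all genes, against 0.188%), 14 without the libraries that stand apart, 12 without a treatment term, 1 with library totals alone, and 0, 0 and 0 within treatments. With library totals alone, 127 of all 17975 genes were called higher in dorsal and 4 of 17543 in ventral skin. Without a treatment term, 68 of all 17543 genes were called higher in ventral skin. Library totals alone gave 6 genes lower in ovary in place of 15. DESeq2 gave 3 calls for sex by treatment in place of 0. The 4 treatment calls became 25 with DESeq2, 9 without the libraries that stand apart and 2 with the counting class as a term, which could not be fitted where class and treatment coincide. Shares of all genes called in the treatment contrasts under the alternatives are not given, so nothing is read from these changed counts. A median of at least 0.1 CPM in place of 1 kept 31 of the 60 genes. The cause of these changes was not tested.

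Leaving out a single library gave 15 to 21 calls in dorsal skin, 5 to 14 in ventral skin (14 without Midday male 2), 39 to 46 genes higher and 11 to 15 lower in ovary, 0 to 0 calls by skin site, for sex by treatment and lower in females in either skin, and 51 to 60 genes kept. Calls over all genes between the sexes, in either direction, then ranged from 498 to 708 in dorsal and from 15 to 52 in ventral skin. The treatment calls ranged from 3 to 14 (14 without Eye Midday female 3, 9 without Eye Midday female 1, 8 without Liver Midday female 1 or Ventral skin Midday male 2, and 7 without Ventral skin ALAN male 1). ENSACAG00000012243 missed the threshold in 15 of 30 alternatives and ENSACAG00000029627 in 11 of 30. With the replicate number as a block, the calls were 18 in dorsal skin, 9 in ventral skin, 40 higher and 15 lower in ovary, 5 for treatments and 0 for the others. Of all genes, 194 of 17975 in dorsal and 27 of 17543 in ventral skin were called higher in females with the block. The numbers did not pair females with males: deviations of same-numbered female and male dorsal skins had a median correlation of −0.04 over 11 pairs. Those of same-numbered dorsal and ventral skins had 0.51 over 22 pairs, of which 20 were over 0.1. For the 12 tested differences of single named genes run under the alternatives, no called direction was reversed. With library totals alone, calls in the gonads moved from 40 higher and 15 lower in ovary to 49 higher and 6 lower. Called directions of some genes there therefore depended on the scaling, and the gonad test of ENSACAG00000010700 was not among the 12. Scaling by library totals alone also raised the genes positive in ovary from 44 to 51. It turned the dorsal skin median of the 11 genes at other places from 0.09 to −0.08. In ALAN libraries alone the ventral skin median of those 11 genes was −0.02. For a difference between skins the median SE was about 0.21 on the log2 scale (0.15 with the block). Shifts near the SE, or a small multiple of it, could not be resolved at this depth and number of libraries.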
